A study of Homo sapiens with 8 samples.

Results

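Heat shock proteins are molecular chaperones, and the set described here covers 41 genes of the mainly cytosolic system: 2 heat shock factors, the Hsp70, Hsp110 and Hsp90 families, small heat shock proteins, J proteins and the cochaperones that tune them. The genes were taken by name, with the probe set that had the highest mean signal over 8 arrays standing for each gene. Of the 41 genes, 33 had a probe set with their symbol alone, out of 22395 such genes on the array, and 32 of the 33 lay above the expression filter (a mean log2 signal over 2.51) out of 16796 genes tested. CRYAB lay below the filter. HSPA1A, HSPA1B, HSPA8, HSPD1, HSPE1 and DNAJB6 were not analysed here because their probe sets carry several gene symbols, and HSF2 and AHSA1 had no probe set with their name. The label of a cytosolic set does not hold for every gene: HSPA9 and TRAP1 encode mitochondrial chaperones, HSPA13 a microsomal one, and HSPB11, now named IFT25, a protein of intraflagellar transport. Copies of a gene elsewhere in the genome can share its probes, so HSPA1L (near HSPA1A and HSPA1B) and HSPA6 (near the HSPA7 pseudogene) are uncertain.

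The arrays came from human prostate cancer cells of 4 lines (VCaP, PC3, DU145 and C4-2B). Each line was transfected with siRNA against DNAPK (si7DNAPK in the labels) or with a non-targeting siRNA (siNTC) and harvested after 48 hours, which gave 1 array for each siRNA in each line. C4-2B is a derivative of LNCaP, VCaP carries the TMPRSS2-ERG fusion, and DU145 and PC3 are androgen receptor-negative lines in common use. DNAPK is a kinase of DNA double-strand break repair, and the study asked which pathways go with it, with Wnt signalling in its title. All values are log2 RMA signals (robust multi-array average, which aligns the distributions of the arrays, so that a difference is set against most other transcripts), and every difference is DNAPK siRNA minus non-targeting siRNA. A difference of 0.5 is a 1.41-fold change and a difference of 1 a 2-fold change. PRKDC, which encodes the targeted kinase, differed by -2.53 (C4-2B), -1.08 (DU145), -1.99 (PC3) and -0.62 (VCaP), so depletion of the transcript was least in VCaP. ERG marked VCaP, at 8.65 with DNAPK siRNA and 8.57 with non-targeting siRNA. KLK3 read 10.24 and 10.12 in C4-2B in that order, but 4.75 and 4.46 in VCaP. TMPRSS2 read 9.46 and 9.56 in C4-2B, 8.68 and 9.03 in VCaP, 7.17 and 6.72 in PC3, and 3.37 and 2.18 in DU145. VIM read 8.15 and 8.19 in DU145, 7.22 and 7.82 in PC3, 3.95 and 4.29 in C4-2B, and 2.47 and 2.22 in VCaP. Markers of other cell types were not all low. PTPRC, the leukocyte gene, read between 1.30 and 2.02 on the 8 arrays, and PDGFRB, VWF and CD3E lay below the filter. CDH5 read 2.76 to 3.18, COL1A1 3.63 to 5.06 and CD68 4.60 to 7.94, highest in DU145 and PC3. Nothing in the labels says that the 2 cultures of a line were repeated. Fewer cells of a kind and less RNA per cell cannot be told apart in such bulk samples.

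Chaperones of the Hsp70 family bind unfolded stretches of client proteins in a cycle driven by ATP. J proteins (DNAJ) bring clients and stimulate ATP hydrolysis, while nucleotide exchange factors (the BAG and Hsp110 proteins) release ADP and the client. Hsp90 then matures a narrower set of clients, among them kinases and steroid receptors such as the androgen receptor, with the help of cochaperones, and small heat shock proteins hold aggregating proteins without ATP. When unfolded proteins accumulate, heat shock factor 1 (HSF1) forms trimers that bind heat shock elements, inverted repeats of a GAA unit, in the promoters of many of these genes. Many cancer cells run this system at a high level.

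The regulatory letters behind that response can be read in RefSeq promoters of build GRCh38.p14, which run from 250 bases before to 50 bases after a gene's start. A promoter was found for 36 of the 41 genes, 28 of them measured. HSF1, HSPA12B, HSPA14, FKBP4 and CRYAB had none. The letters searched were 3 GAA units in alternating orientation, GAANNTTCNNGAA, on both strands, and matches may overlap each other. They occurred in 8 of the 36 genes (22.2%), against 166 of 27305 genes with a promoter (0.608%). The 8 genes were HSPA6, HSPA8, HSPD1, HSP90AA1, HSP90AB1, DNAJA1, DNAJB6 and CHORDC1. Some genes have more than 1 promoter, and a gene counted when any of its promoters matched. HSPD1, HSP90AA1 and HSP90AB1 also have promoters without a match, and for HSP90AA1 the matching promoter is printed. A match of letters describes the sequence and is not a measured binding site, and the genes were picked as heat shock genes in the first place. The promoters of 4 genes to which the results return are printed 5′ to 3′ on the gene's strand. Capitals mark the 3-unit letters in HSPA6, HSP90AA1 and CHORDC1, where 3 overlapping matches join into 1 run from 60 to 38 bases before the start. HSPB1 has no 3-unit match in this window, and its capitals mark a shorter match of 2 units, GAANNTTC.
HSPA6, chr1:161524290-161524589, plus strand: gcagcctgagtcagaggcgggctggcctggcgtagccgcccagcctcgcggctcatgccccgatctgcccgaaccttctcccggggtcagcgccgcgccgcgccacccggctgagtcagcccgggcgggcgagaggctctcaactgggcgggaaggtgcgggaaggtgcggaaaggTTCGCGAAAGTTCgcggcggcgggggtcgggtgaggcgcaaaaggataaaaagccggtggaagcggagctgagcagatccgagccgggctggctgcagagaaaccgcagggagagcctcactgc
CHORDC1, chr11:90223000-90223299, minus strand: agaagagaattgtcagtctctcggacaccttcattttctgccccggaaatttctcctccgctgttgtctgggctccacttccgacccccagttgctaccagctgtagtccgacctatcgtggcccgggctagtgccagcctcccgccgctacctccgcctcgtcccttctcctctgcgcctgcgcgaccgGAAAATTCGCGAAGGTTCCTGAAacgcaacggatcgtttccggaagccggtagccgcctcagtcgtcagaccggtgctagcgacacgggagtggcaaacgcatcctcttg
HSP90AA1, chr14:102086995-102087294, minus strand: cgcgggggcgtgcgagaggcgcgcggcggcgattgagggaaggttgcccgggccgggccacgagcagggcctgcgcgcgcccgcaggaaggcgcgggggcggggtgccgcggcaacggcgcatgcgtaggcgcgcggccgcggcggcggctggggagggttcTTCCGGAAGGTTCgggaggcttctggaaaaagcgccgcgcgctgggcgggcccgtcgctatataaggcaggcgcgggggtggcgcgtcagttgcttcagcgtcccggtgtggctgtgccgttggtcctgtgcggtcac
HSPB1, chr7:76302423-76302722, plus strand: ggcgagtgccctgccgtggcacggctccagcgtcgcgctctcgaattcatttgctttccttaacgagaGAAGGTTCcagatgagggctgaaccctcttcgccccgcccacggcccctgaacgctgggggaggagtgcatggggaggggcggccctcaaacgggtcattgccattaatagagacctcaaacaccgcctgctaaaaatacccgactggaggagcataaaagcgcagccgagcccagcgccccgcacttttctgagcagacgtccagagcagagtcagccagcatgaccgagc

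Across the 4 lines, the response of these genes to DNAPK siRNA was small, and its sign varied from line to line. No member passed the test of the mean difference (limma with the cell line as a block, Benjamini-Hochberg over 16796 genes), where 0.0% of all genes passed in either direction (lowest adjusted p 0.688, for members as for all genes). PRKDC, the targeted gene itself, was not called either (mean difference -1.56, limma unadjusted p = 0.000837, adjusted p = 0.688). The lack of calls therefore does not show that a gene did not respond. Before adjustment, with p under 0.05, HSPA12B and FKBP4 were higher, 2 of 32 members (6.25%) against 4.2% of all genes, and 0 members were lower against 2.99%. The difference had 1 sign in all 4 lines for 4 members, HSPA4, HSPA12B, DNAJB2 and FKBP4, all higher, which is 12.5% of members against 11.5% of all genes. None was lower in all 4 lines, against 5.89% of all genes. These shares are near those of all genes. The median of the members' mean differences was 0.08, with 25 above 0 and 7 below, against 0.03 over all genes tested. Without DU145 the members' median was 0.0351.

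DU145 was the line in which most members had higher values with DNAPK siRNA. There, 28 of 32 members lay above 0 (87.5%, against 56.9% of all genes), with a median of 0.23 against 0.05. In PC3, 22 members lay above 0 (68.8% against 55.5%) with a median of 0.08 against 0.04. C4-2B and VCaP were evenly split: 16 members lay above 0 in C4-2B (50% against 57.1%) and 17 in VCaP (53.1% against 49.7%). The medians were 0.0037 in C4-2B and 0.02 in VCaP, against 0.04 and -0.0032 for all genes, and the sign of the C4-2B median turned with median centring (-0.0099), cyclic loess (-0.04) and a filter at the 50th percentile (-0.0114), as did that of VCaP with this filter (-0.0083). In DU145 27 members lay above 0 under each of these scalings. With 1 array for each siRNA in a line, the shift in DU145 carries no test. It is also not limited to these genes, as the lists given further on show.

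**Figure D1:**
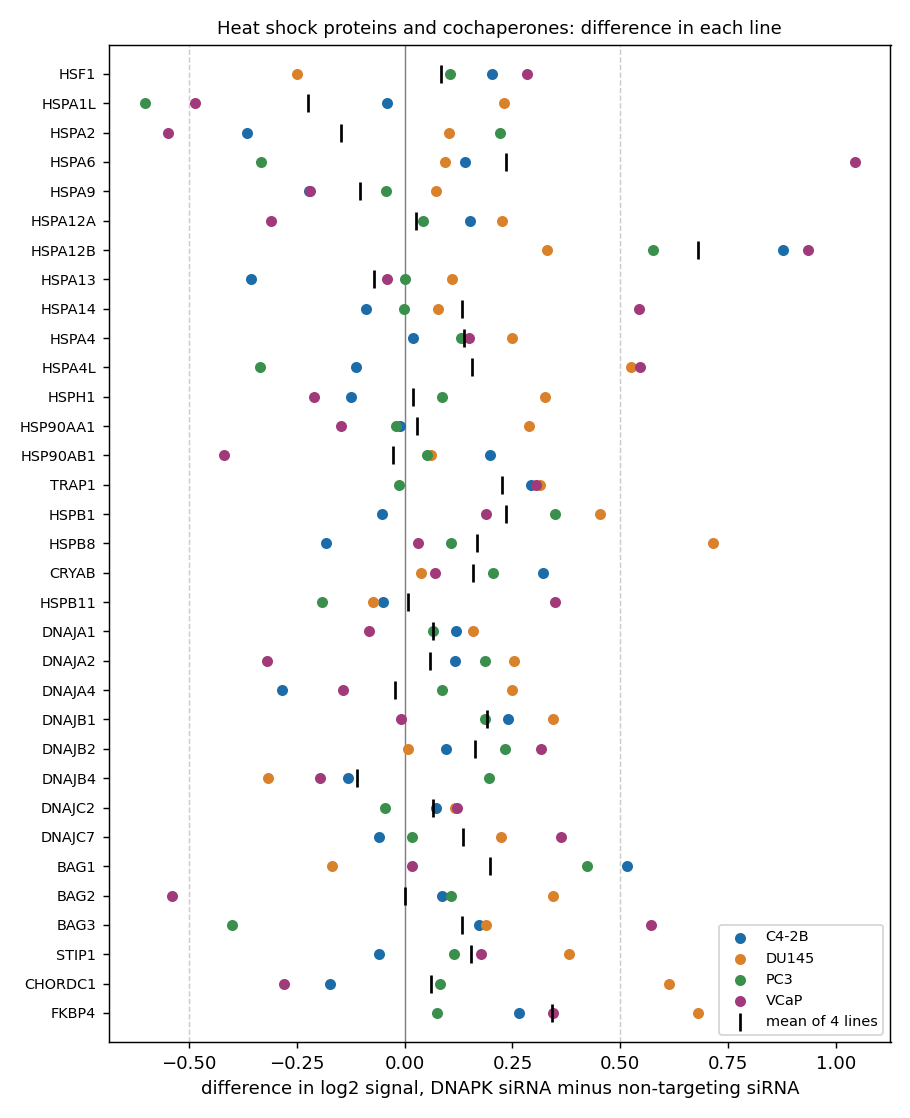
Difference in log2 signal, DNAPK siRNA minus non-targeting siRNA, for the 33 measured genes ordered by family, with 1 point for each of the 4 lines and a bar for their mean. Dashed lines stand at -0.5 and 0.5. HSPA12B lies to the right of 0 in every line, most DU145 points lie right of 0, and HSPA6 reaches 1.04 in VCaP. CRYAB is shown although it lies below the expression filter.

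HSF1, the master factor of the response, differed by under 0.3 in each line. Its signal was 6.60 (C4-2B), 6.01 (DU145), 6.69 (PC3) and 6.20 (VCaP) with DNAPK siRNA, against 6.40, 6.26, 6.58 and 5.92 with non-targeting siRNA in the same order of lines, an order kept for all genes that follow. DU145, the line whose chaperones lay mostly above 0, had the only lower HSF1 value, at -0.25, and the other lines had 0.20, 0.11 and 0.28. HSF1 works mainly through its protein's trimerization and modification, so its transcript is not a measure of its activity. The F test over lines did not call its level (limma, adjusted p = 0.0611), but of the pairwise tests 1 did, with PC3 1.49-fold above VCaP (adjusted p = 0.0427).

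In the Hsp70 family, 8 of 11 genes were measured, all 8 lay above 0 in DU145, and HSPA12B had the largest mean difference of all members. HSPA12B encodes a distant member known mainly from endothelial cells. With DNAPK siRNA it read 3.35 (C4-2B), 3.01 (DU145), 3.43 (PC3) and 3.78 (VCaP), against 2.47, 2.68, 2.86 and 2.84 with non-targeting siRNA. The 4 knockdown arrays all lay above the 4 control arrays. The mean difference was 0.68 ± 0.28 (SD, n = 4 lines), with a limma 95% interval of 0.36 to 1.0, an unadjusted p of 0.00134 and an adjusted p of 0.688, so it did not pass over all genes. Its control signals stood near the filter level of 2.51, where the array measures poorly. The related HSPA12A has 2 probe sets, and its differences ran from -0.31 to 0.22 on the chosen one and from -0.32 to 0.40 on the other, below 0 in VCaP alone on both.

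HSPA6, the strictly stress-inducible Hsp70 of human cells, differed by over 1 in VCaP alone. Its signal was 3.16 (C4-2B), 3.07 (DU145), 3.50 (PC3) and 3.60 (VCaP) with DNAPK siRNA, against 3.02, 2.97, 3.84 and 2.56 with non-targeting siRNA. The VCaP control array was the lowest of the 8 and sat close to the filter level. On the chosen probe sets HSPA6 was the only member past 1 in any line, in VCaP where 1.29% of all genes lay above 1, and without VCaP its mean difference turned from 0.24 to -0.03. Its promoter holds the 3-unit letters printed above, from 74 to 62 bases before the start.

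The testis-enriched Hsp70 genes HSPA2 and HSPA1L had lower values in VCaP. HSPA2 read 3.16 (C4-2B), 6.45 (DU145), 5.30 (PC3) and 2.26 (VCaP) with DNAPK siRNA, against 3.53, 6.35, 5.08 and 2.81 with non-targeting siRNA. It lay below 0 in C4-2B and VCaP and above 0 in DU145 and PC3, and had the only unadjusted p under 0.05 among members for a difference in response between these pairs of lines. Both VCaP signals of HSPA2 lay near the filter level of 2.51, so its difference there is uncertain. For HSPA1L the chosen probe set gave 5.14 (C4-2B), 4.85 (DU145), 3.88 (PC3) and 3.66 (VCaP) with DNAPK siRNA, against 5.18, 4.62, 4.49 and 4.15 with non-targeting siRNA. The probe sets of HSPA1L disagree in PC3, where the chosen 1 of 5 gave -0.60 and the other 4 gave 0.23 to 0.35, and 3 of the 5 hold identical values. All 5 lay below 0 in VCaP, from -1.09 to -0.49.

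Of the remaining Hsp70 genes, HSPA14, which acts with the J protein DNAJC2 on ribosomes, had a single large difference. It read 6.88 (C4-2B), 7.23 (DU145), 6.31 (PC3) and 6.72 (VCaP) with DNAPK siRNA, against 6.97, 7.15, 6.31 and 6.17 with non-targeting siRNA. The difference was 0.54 in VCaP and within 0.1 of 0 elsewhere, and without VCaP the mean of 0.13 became -0.0044. HSPA9, the mitochondrial Hsp70 that drives protein import, had differences between -0.22 and 0.07 on the chosen probe set, while a second one gave 0.11 in VCaP, and HSPA13 between -0.36 and 0.11.

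The 3 Hsp110 genes, which encode exchange factors for Hsp70, were all higher in DU145. HSPA4 was higher in each line, at 9.47 (C4-2B), 9.59 (DU145), 9.18 (PC3) and 9.60 (VCaP) with DNAPK siRNA, against 9.46, 9.34, 9.04 and 9.45 with non-targeting siRNA, a mean difference of 0.14 ± 0.09 (SD, n = 4 lines; limma, adjusted p = 0.768). HSPA4L read 8.19 (C4-2B), 7.99 (DU145), 6.94 (PC3) and 4.78 (VCaP) with DNAPK siRNA, against 8.31, 7.47, 7.27 and 4.24 with non-targeting siRNA. Its differences of 0.53 in DU145 and 0.55 in VCaP stood against -0.11 in C4-2B and -0.34 in PC3. HSPH1 read 10.16 (C4-2B), 8.67 (DU145), 9.43 (PC3) and 8.21 (VCaP) with DNAPK siRNA, against 10.29, 8.35, 9.34 and 8.42 with non-targeting siRNA. In HSPA4L and HSPH1 the lines differed far more from one another than the siRNAs did.

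The Hsp90 genes had mixed signs. HSP90AA1, the inducible cytosolic isoform, differed by 0.29 in DU145 and by -0.15 in VCaP, and by under 0.05 in C4-2B and PC3. HSP90AB1, the constitutive isoform, differed by 0.20 (C4-2B), 0.06 (DU145), 0.05 (PC3) and -0.42 (VCaP), where it read 9.64 with DNAPK siRNA and 10.06 with non-targeting siRNA. TRAP1, the mitochondrial Hsp90, had 0.29, 0.31, -0.01 and 0.30 in C4-2B, DU145, PC3 and VCaP, a mean of 0.22 ± 0.16 (SD, n = 4 lines; limma, adjusted p = 0.693). None of the 3 passed the test.

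Among small heat shock proteins, HSPB1 (Hsp27, an actin and apoptosis regulator as well as a chaperone) differed between lines far more than between siRNAs. It read 10.49 (C4-2B), 9.58 (DU145), 9.19 (PC3) and 4.70 (VCaP) with DNAPK siRNA, against 10.54, 9.13, 8.84 and 4.51 with non-targeting siRNA. Both VCaP arrays lay over 4 log2 units below every array of the other lines. Its differences of -0.05, 0.45, 0.35 and 0.19 gave a mean of 0.23 ± 0.22 (SD, n = 4 lines; limma, adjusted p = 0.694). HSPB8, a partner of BAG3 in selective autophagy of damaged proteins, differed by 0.71 in DU145, the largest value of any member in that line. Its signals were low throughout: 2.57 (C4-2B), 3.41 (DU145), 2.42 (PC3) and 2.65 (VCaP) with DNAPK siRNA, against 2.75, 2.70, 2.31 and 2.62 with non-targeting siRNA. Only the DU145 knockdown array stood clear of the others, and without DU145 the mean difference of 0.17 became -0.01. CRYAB (alpha B-crystallin), below the filter and not tested, read 2.27 to 3.04 with DNAPK siRNA and 2.23 to 2.72 with non-targeting siRNA. HSPB11 had differences between -0.19 and 0.35.

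Of the J proteins, 8 of 9 were measured, and 7 of these lay above 0 in DU145 and 7 in PC3. DNAJB1 (Hsp40), the main stress-induced J protein, differed by 0.24 (C4-2B), 0.34 (DU145), 0.19 (PC3) and -0.0083 (VCaP) (mean 0.19 ± 0.15, SD, n = 4 lines; limma, adjusted p = 0.722). DNAJB2, a J protein that passes clients to the proteasome, was higher in every line, at 4.36 (C4-2B), 3.79 (DU145), 4.99 (PC3) and 4.64 (VCaP) with DNAPK siRNA, against 4.27, 3.78, 4.75 and 4.33 with non-targeting siRNA. Its difference in DU145 was only 0.0091, and the mean of 0.16 ± 0.14 did not pass (SD, n = 4 lines; limma, adjusted p = 0.745). DNAJB4 went the other way in 3 lines: it read 5.23 (C4-2B), 7.74 (DU145), 5.57 (PC3) and 4.85 (VCaP) with DNAPK siRNA, against 5.36, 8.06, 5.38 and 5.05 with non-targeting siRNA. DNAJA4 read 2.59 (C4-2B), 5.91 (DU145), 3.94 (PC3) and 7.48 (VCaP) with DNAPK siRNA, against 2.87, 5.66, 3.85 and 7.63 with non-targeting siRNA, so the siRNA moved it by under 0.3 in each line. DNAJA1, DNAJA2, DNAJC2 and DNAJC7 had differences between -0.32 and 0.36.

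The BAG genes, whose proteins release ADP from Hsp70, gave a different order in each line. BAG1, which also links Hsp70 to the proteasome, read 6.23 (C4-2B), 6.77 (DU145), 5.67 (PC3) and 5.78 (VCaP) with DNAPK siRNA, against 5.71, 6.94, 5.25 and 5.77 with non-targeting siRNA. Its values lay above 0 by 0.52 in C4-2B and 0.42 in PC3 and below 0 in DU145. BAG2, which inhibits the ubiquitin ligase CHIP, read 7.53 (C4-2B), 8.62 (DU145), 7.30 (PC3) and 5.48 (VCaP) with DNAPK siRNA, against 7.44, 8.28, 7.19 and 6.02 with non-targeting siRNA. It lay above 0 in 3 lines and at -0.54 in VCaP. BAG3, the stress-induced member, read 6.80 (C4-2B), 7.28 (DU145), 6.34 (PC3) and 4.62 (VCaP) with DNAPK siRNA, against 6.63, 7.09, 6.74 and 4.05 with non-targeting siRNA. BAG3 thus had 0.57 in VCaP, where BAG2 was lower, and -0.40 in PC3, and without VCaP its mean of 0.13 became -0.01.

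The Hsp90 cochaperones held the second largest mean difference among members, that of FKBP4. FKBP4 (FKBP52) is an immunophilin of steroid receptor complexes that is known to aid androgen receptor function. It read 8.41 (C4-2B), 7.10 (DU145), 7.10 (PC3) and 8.51 (VCaP) with DNAPK siRNA, against 8.15, 6.42, 7.02 and 8.16 with non-targeting siRNA. The value was higher with DNAPK siRNA in 4 of 4 lines, by 0.68 in DU145 but only 0.08 in PC3, with a mean of 0.34 ± 0.25 (SD, n = 4 lines), a limma 95% interval of 0.03 to 0.65, an unadjusted p of 0.0338 and an adjusted p of 0.688. CHORDC1, an Hsp90 partner with the 3 overlapping matches printed above, read 6.50 (C4-2B), 6.51 (DU145), 6.31 (PC3) and 6.23 (VCaP) with DNAPK siRNA, against 6.67, 5.90, 6.22 and 6.51 with non-targeting siRNA. It was 0.61 higher in DU145 and lower in C4-2B and VCaP, and the mean of 0.06 became -0.12 without DU145. STIP1 (HOP), which bridges Hsp70 and Hsp90, differed by -0.06 (C4-2B), 0.38 (DU145), 0.11 (PC3) and 0.18 (VCaP). All 3 cochaperones had their highest difference in DU145.

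**Figure D2:**
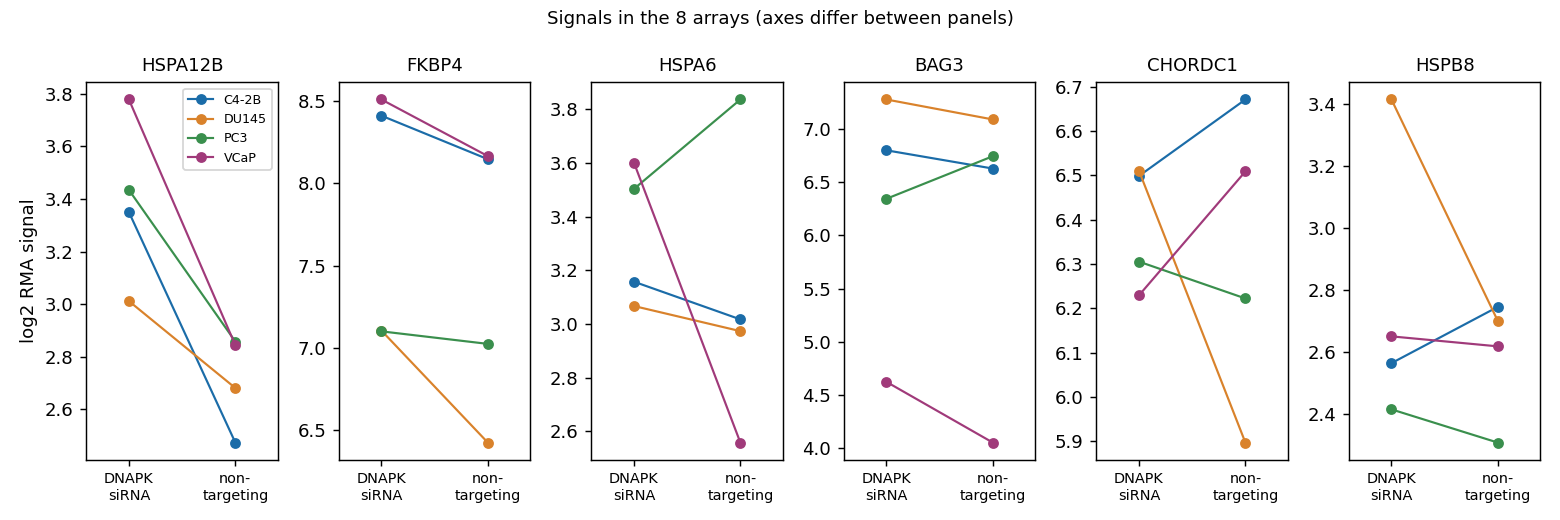
Log2 RMA signal of 6 genes in the DNAPK siRNA array (left) and the non-targeting siRNA array (right) of each line, joined by a line for each cell line. HSPA12B and FKBP4 are higher with DNAPK siRNA in every line, HSPA6 falls into 2 directions with 1.04 in VCaP and -0.33 in PC3, and CHORDC1 and HSPB8 are set apart by DU145. The vertical axes differ between panels.

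Counted by size, few members passed 0.5 on the log2 scale in any line. In C4-2B, HSPA12B and BAG1 lay above 0.5, 2 of 32 members (6.25%) against 4.51% of all genes, and 0 lay below -0.5 against 3.76%. In DU145, HSPA4L, HSPB8, CHORDC1 and FKBP4 lay above 0.5 (12.5% against 5.89%) and 0 below -0.5 (against 5.55%). In PC3, HSPA12B lay above 0.5 (3.12% against 6.08%) and HSPA1L below -0.5 (3.12% against 5.22%), in HSPA1L on 1 probe set of 5. In VCaP, HSPA4L, HSPA6, HSPA12B, HSPA14 and BAG3 lay above 0.5 (15.6% against 10.5%) and HSPA2 and BAG2 below -0.5 (6.25% against 12.8%). HSPA1L stood at -0.49 in VCaP on the chosen probe set but between -1.09 and -0.98 on the other 4. Past 1, DU145 had 0 members on either side (against 0.304% of all genes above 1 and 0.816% below -1), as had C4-2B (0.244% and 0.339%) and PC3 (0.53% and 0.542%), and on the chosen probe sets VCaP had 0 below -1 (2.42%). The 4 genes past 0.5 in DU145 are all on the list of HSF1-inducible genes given next, which holds 15 of the 32 tested members. Of the genes above 0.5 in other lines only, HSPA6 and BAG3 are on it and HSPA12B, HSPA14 and BAG1 are not. The list was chosen with earlier results of these data known, so these overlaps are no support for a link to HSF1. The DU145 difference of HSPB8 also rests on signals near the filter level.

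A list of 22 members known to be induced by HSF1 on heat shock, 15 of them tested, was set beside the other 17 tested members. In DU145, 14 of the 15 inducible genes lay above 0 (93.3%, against 56.9% of all genes), all but DNAJB4, with a median of 0.33. Of the 17 others 14 did (82.4%), with a median of 0.12. In PC3 the inducible genes had a median of 0.08, with 11 of 15 above 0 (73.3% against 55.5%), and the others 0.04. The inducible genes leaned the other way in C4-2B, with a median of -0.05, against 0.07 for the others, and 6 of 15 above 0 (40% against 57.1%). VCaP had medians of -0.0083 and 0.12, with 7 of the 15 inducible genes above 0 (46.7% against 49.7%). The signs of these inducible-list medians held under median centring and cyclic loess. The list was chosen with earlier results of these data known, and the difference between the lists was not tested. The 5 tested members with the 3-unit promoter letters (HSPA6, HSP90AA1, HSP90AB1, DNAJA1 and CHORDC1) had medians of 0.12 (C4-2B), 0.16 (DU145), 0.05 (PC3) and -0.15 (VCaP), and the 23 tested members with a promoter but without these letters had -0.05, 0.23, 0.09 and 0.02. All 5 lay above 0 in DU145, and in VCaP HSPA6 was the only 1 of the 5 above 0.

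The neighbouring parts of the chaperone system were read from 5 further lists. Of all genes, 57.1% (C4-2B), 56.9% (DU145), 55.5% (PC3) and 49.7% (VCaP) lay above 0. Before adjustment, with limma p under 0.05, 4.2% of all genes were higher and 2.99% lower. Other Hsp70 and Hsp90 cochaperones had 22 tested genes, with a median mean difference of 0.15. Above 0 lay 20 in C4-2B (90.9%), 15 each in DU145 and PC3 (68.2%), and 17 in VCaP (77.3%). PPID (cyclophilin 40, an immunophilin of the same Hsp90 complexes as FKBP4) had 0.42 ± 0.22 and was above 0 in 4 of 4 lines. DNAJB5 had 0.37 ± 0.22, UNC45A, a myosin and Hsp90 cochaperone, 0.25 ± 0.23, and HSBP1, which binds and restrains HSF1, 0.23 ± 0.06 (SD, n = 4 lines). Without VCaP, UNC45A had 0.15. All 4 of these were higher with DNAPK siRNA in each line, but 0 of the 22 genes passed the adjusted limma test. Before adjustment 2 of the 22 had a limma p under 0.05, both higher, too few to read as a result beside 4.2% of all genes. The subunits of the cytosolic chaperonin TRiC and of prefoldin, which fold actin and tubulin, were above 0 for 13 of 13 genes in DU145 (median 0.21), 12 in VCaP (0.09), 10 in PC3 (0.08) and 7 in C4-2B (0.0086, a sign that turned with both scalings). PFDN5 had 0.35 ± 0.14, CCT5 0.21 ± 0.22, CCT7 0.17 ± 0.02 and CCT3 0.16 ± 0.10 (SD, n = 4 lines). Without VCaP, CCT5 had 0.12. None of the 13 passed, with 0 adjusted and 1 unadjusted limma p under 0.05 (higher, against 4.2% of all genes).

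Mitochondrial chaperones and proteases gave 8 of 10 genes above 0 in DU145 (80%, against 56.9% of all genes), with a median of 0.25. Their medians were -0.05, -0.0002 and -0.02 in C4-2B, PC3 and VCaP. The paired exchange factors of the mitochondrial Hsp70 had opposite signs: GRPEL1 had 0.33 ± 0.23 and GRPEL2 -0.24 ± 0.11 (SD, n = 4 lines), each with 1 sign in 4 of 4 lines. HSCB, which serves iron-sulfur cluster assembly, had 0.20 ± 0.25 and the protease subunit CLPP 0.12 ± 0.16 (SD, n = 4 lines). Leaving out a line moved HSCB to between 0.13 and 0.32 (without PC3 and without C4-2B) and CLPP to between 0.07 and 0.19 (without C4-2B and without PC3). Of the 10 genes 0 passed, and 1 had an unadjusted limma p under 0.05 (higher, against 4.2% of all genes). Of the other small heat shock proteins only HSPB6 (-0.29 ± 0.34), CRYAA (-0.16 ± 0.26) and HSPB7 (0.16 ± 0.28) lay above the filter (SD, n = 4 lines), at low signals between 2.01 and 3.27. Each mean leaned on 1 line: HSPB6 had -0.16 without C4-2B, CRYAA -0.06 without PC3 and HSPB7 0.04 without DU145.

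Chaperones of the endoplasmic reticulum had larger differences than the members in VCaP. All 13 tested ER genes were above 0 there (100%, against 49.7% of all genes), with a median of 1.11. Past 1 lay 8 of them, against 1.29% of all genes, among them PDIA3 (2.45), MANF (2.14) and DNAJB11 (1.62). The 32 cytosolic-set members had a median of 0.02 and 1 past 1. In VCaP, PDIA3 read 5.80 with DNAPK siRNA and 3.35 with non-targeting siRNA, MANF 6.50 and 4.36, and DNAJB11 7.68 and 6.07. This VCaP control array was the lowest of the 8 for most of the list, though not for CALR and CANX. The ER differences in VCaP thus lean on a single low control array. Of the 4 lines, VCaP also had the largest shares of all genes past 0.5, with 10.5% above 0.5 and 12.8% below -0.5. In C4-2B the ER genes went the opposite way, with 0 of 13 above 0 (against 57.1% of all genes) and a median of -0.16. In DU145 12 of 13 lay above 0 (92.3%, against 56.9% of all genes) with a median of 0.18. SDF2L1, the fourth ER gene by mean difference, had 1.37 in VCaP. The signs of the ER medians in VCaP and C4-2B held with median centring and cyclic loess. Of the 13 genes, 0 passed the limma test of the mean over lines (0 unadjusted p under 0.05). The contrast between the 2 compartments has 1 array pair in each line and no test.

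**Figure D3:**
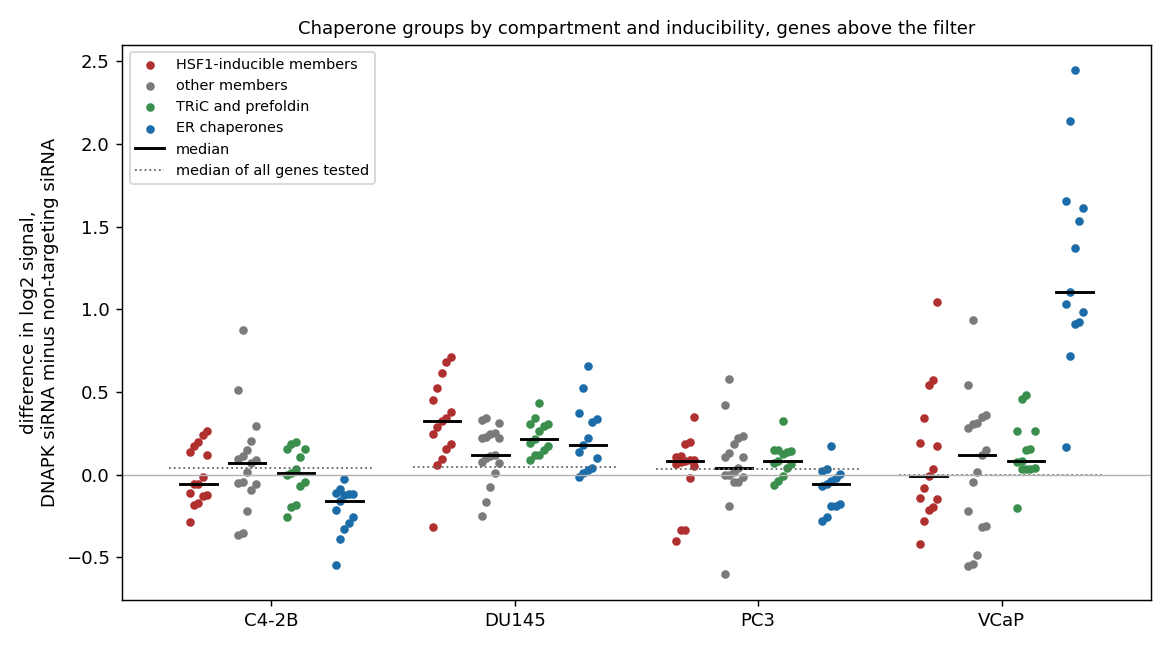
Difference in log2 signal, DNAPK siRNA minus non-targeting siRNA, in each line for 15 HSF1-inducible members, 17 other members, 13 subunits of TRiC and prefoldin and 13 ER chaperones, with 1 point for each gene, a bar at the median of each group and a dotted line at the median of all genes tested. The ER group stands at a median of 1.11 in VCaP, where the other 3 groups have medians between -0.0083 and 0.12, and all 4 groups have medians above that of all genes in DU145.

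The lines themselves differed far more than the siRNAs. The F test for a difference in level between the 4 lines called 24 of 32 members (75%), against 62.6% of all genes (limma, adjusted p under 0.05). Its spread comes from how the siRNA difference varies between lines, since a line has 1 array for each siRNA. HSF1, HSPA4, HSPA6, HSPA12B, HSPB8, HSP90AB1, DNAJA1 and CHORDC1 were not called. The pairwise tests called HSF1 in 1 pair, as given above, and HSPB8 in 1 pair, with DU145 1.62-fold above PC3 (limma, adjusted p = 0.0465). This HSPB8 call leans on the DU145 knockdown array (3.41), since the control arrays read 2.70 in DU145 and 2.31 in PC3, near the filter level. HSP90AB1 was the flattest of all, with a range of 0.20 over the control arrays, and DNAJA1 (0.29) and HSPA4 (0.41) were nearly as level. These tests concern the 4 lines as cultured here, since each line is 1 source of cells.

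VCaP was the line with the most low chaperone levels. Its level lay below that of each of the other 3 lines by the pairwise test for 8 of 32 members (25%, against 6.28% of all genes; Benjamini-Hochberg over genes and the 6 pairs of lines), namely HSPA2, HSPA4L, HSPB1, HSP90AA1, DNAJB1, DNAJC2, BAG2 and BAG3. Pair by pair, 14 members were higher in C4-2B than in VCaP (43.8%, against 18.2% of all genes) and 4 lower (12.5% against 16.9%). In DU145 against VCaP 13 were higher (40.6% against 21.0%) and 7 lower (21.9% against 19.6%), and in PC3 against VCaP 10 were higher (31.2% against 21.0%) and 6 lower (18.8% against 19.1%). In C4-2B against DU145, 6 members were higher (18.8% against 17.3% of all genes) and 5 lower (15.6% against 17.7%). In C4-2B against PC3, 10 were higher (31.2% against 17.7%) and 4 lower (12.5% against 18.5%). In DU145 against PC3, 9 were higher (28.1% against 15.5%) and 3 lower (9.38% against 16.4%). A lean to 1 side was therefore not limited to the pairs with VCaP. Regardless of test, VCaP had the lowest mean level for 16 of 32 members (50%), against 29.2% of all genes. HSPB1 showed the widest gap: the level was 60.1-fold higher in C4-2B, 26.9-fold higher in DU145 and 21.3-fold higher in PC3 than in VCaP, with pairwise adjusted p of 1.8e-06, 3.17e-06 and 3.95e-06 (limma). HSPA4L was 13.4-fold higher in C4-2B, 9.31-fold in DU145 and 6.04-fold in PC3 than in VCaP. For BAG3 these folds were 5.19, 7.18 and 4.61, for BAG2 3.33, 6.48 and 2.82, and for DNAJB1 2.04, 2.75 and 3.22. HSP90AA1 differed by less, with folds between 1.49 and 1.74. Of these 8 genes, HSPB1, HSPA4L, DNAJB1, HSP90AA1 and BAG3 are on the HSF1-inducible list, which holds 15 of the 32 tested members. As that list was chosen with earlier results of these data known, the overlap is a description only. HSPH1 and DNAJB4, also on that list, had their lowest mean level in VCaP without lying below each other line in the test, while FKBP4, STIP1 and DNAJA4 had their highest there. STIP1 (C4-2B minus VCaP -0.88, adjusted p = 0.00535) and DNAJA4 (-4.82, adjusted p = 3.25e-06) were higher in VCaP than in each other line, as was HSPA9 (-0.74, adjusted p = 0.0095), 3 of 32 members (9.38%) against 7.44% of all genes.

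**Figure D4:**
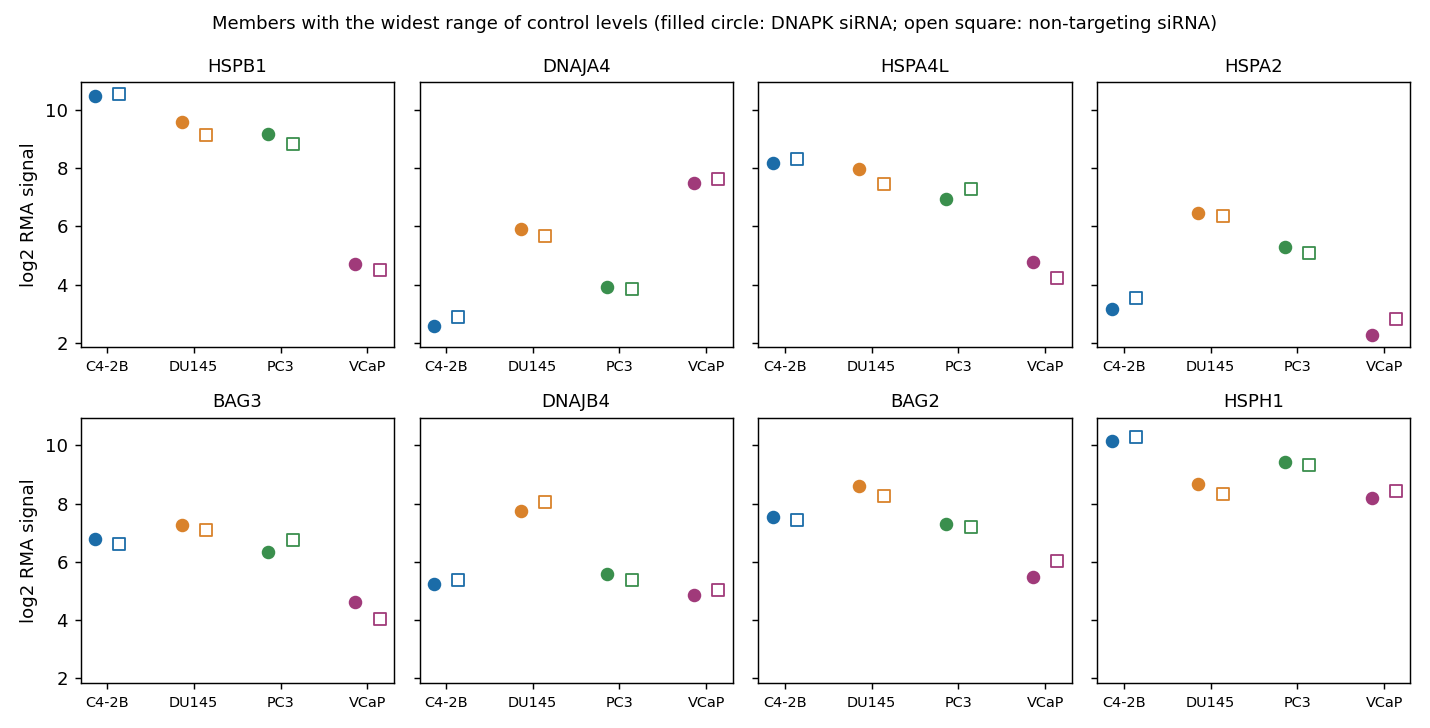
Log2 RMA signal on the 8 arrays for the 8 members with the widest range over control arrays, filled circles for DNAPK siRNA and open squares for non-targeting siRNA, side by side for each line. HSPB1, HSPA4L, BAG3 and BAG2 are lowest in VCaP, DNAJA4 is highest there, DNAJB4 stands out in DU145 and HSPH1 in C4-2B, and the 2 arrays of a line lie within 0.6 of each other.

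DU145 and C4-2B had high or low chaperones of their own. DU145 was above each other line for 4 members (12.5%, against 5.73% of all genes), HSPA2, DNAJB4, BAG1 and BAG2, and below each for HSPA12A and DNAJB2 (6.25% against 4.27%), though for HSPA12A only on the chosen probe set, since DU145 was the highest line on the other. The level of DNAJB4 was 5.37-fold higher in DU145 than in PC3 and 7.72-fold higher than in VCaP (limma, adjusted p = 5.11e-05 and 2.05e-05), while PC3 and VCaP did not differ past the threshold (adjusted p = 0.0529). C4-2B was above each other line for HSPB1, HSPH1 and TRAP1 (9.38% against 5.23%) and below each for DNAJA4 (3.12% against 3.91%). HSPH1 was 3.29-fold higher in C4-2B than in DU145, 1.79-fold higher than in PC3 and 3.75-fold higher than in VCaP, with DU145 and VCaP not told apart (adjusted p = 0.461). PC3 stood above or below all others for 0 members, against 6.24% and 3.79% of all genes.

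FKBP4 divided the lines into pairs. Its mean level over both siRNAs was 8.28 in C4-2B and 8.34 in VCaP, which did not differ past the threshold (limma, adjusted p = 0.841), and 6.76 in DU145 and 7.06 in PC3, which did not either (adjusted p = 0.259). The level was 2.86-fold higher in C4-2B than in DU145 and 2.32-fold higher than in PC3. The chosen probe set of HSPA12A gave the same order of lines, with 7.40 in VCaP, 7.10 in C4-2B, 6.42 in PC3 and 5.77 in DU145. Its second probe set gave nearly the reverse, with DU145 highest (4.74 with DNAPK siRNA and 4.37 with non-targeting siRNA) and VCaP lowest (2.88 and 3.20), so the order of lines for HSPA12A is not settled. DNAJA4 had no such pairing, with C4-2B lowest (2.73) and VCaP highest (7.56) and all 6 pairs of lines apart.

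Whether the response in C4-2B and VCaP differed from that in DU145 and PC3 was tested as a contrast in the same kind of fit. It called 0 of 32 members and 0.0% of all genes, with a lowest adjusted p of 0.991. Before adjustment, p was under 0.05 for HSPA2 alone (3.12% of members against 3.7% of all genes), for which the difference in C4-2B and VCaP minus that in DU145 and PC3 was -0.62 (limma, unadjusted p = 0.0400). The VCaP signals of HSPA2 lay near the filter level. CHORDC1 had -0.57 and HSPA6 0.71, with unadjusted p of 0.0776 and 0.0840 in the same limma fit. No response of a chaperone gene to DNAPK siRNA was therefore shown to differ between these pairs of lines.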

How the data were processed

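Labelling of 400 ng total RNA for Affymetrix whole-transcript arrays followed the maker's protocol, per the labels. Each deposited value is a log2 signal of a probe set, which the authors made with oligo and RMA, per the submitters' processing notes (no version given). The genome build was not given in the sources. Of 53617 probe sets, 23871 had 1 gene symbol in the platform annotation and were used, and symbols were updated through RefSeq (GRCh38.p14). The probe set with the highest mean stood for each of 22395 genes, and genes at or below the 25th percentile of means were not tested.

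Fits used limma 3.58.1 (lmFit and eBayes) under R 4.3.3, 2-sided, with Benjamini-Hochberg adjustment at 0.05. The mean difference was fitted with the cell line as a block (3 residual degrees of freedom, 7.55 with the prior). The block comes from the design, with 1 array for each siRNA in each line. After subtraction of group means, arrays of a line correlated at 0.86 to 0.92 across genes and arrays of different lines at most at 0.01. The subtraction by itself lowers the correlations between lines, so their low values are no support for the block. P-values of the mean difference measure the spread of the differences between 4 lines, with a variance moderated by the prior over all genes. The same model gave the F test of level between lines and the 6 pairwise contrasts. The p-values of these level tests measure the lines against what the mean siRNA difference leaves over within lines. With 1 array for each siRNA in a line, that is how the siRNA difference varies between lines, not a spread of repeated cultures. Array number limits the precision, and scanner files were not used here, so detection calls and batches could not be read.

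The members, the lists and the rule for named genes were chosen with earlier results of these data known. The rule gives all 8 arrays for members with 1 sign in 4 lines, a difference past 0.5 in a line, or 1 of the 8 widest control ranges. From each other list up to 4 genes with the largest mean difference are named; other members are given by range. Alternatives covered the filter, scaling, choice of probe set, variance prior, block and leaving out each line.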

Additional observations from a re-analysis of the deposited data

Results flagged for a closer look

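Of 54 sets of 4 values examined for 18 members (signals with each siRNA, and differences), 2 held a line far from the other 3. By chance about 1 in 20 such sets would be picked out. The DNAJB4 signal in the DU145 non-targeting siRNA array was 8.06, against 5.05 to 5.38 in the other non-targeting siRNA arrays. The BAG3 signal in the VCaP non-targeting siRNA array was 4.05, against 6.63 to 7.09 in the others. The DNAPK siRNA arrays of the same lines gave 7.74 for DNAJB4 in DU145 and 4.62 for BAG3 in VCaP.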

How the results depend on the processing

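The count of 0 members called for the mean difference, 0 genes called and 0 members called for the response contrast was the same under each alternative run, including no replicate block, and the unadjusted counts are given with the mean difference. Members called for level numbered 22 to 26 under the other filters, scalings, probe set choice and prior, and 18 to 21 with a line left out, against 24. The members' median mean difference ran from 0.0351 to 0.0999 with a line left out (the lowest without DU145). Past 1 in place of 0.5, the counts of members higher were 0 in C4-2B, DU145 and PC3 and 1 in VCaP, and 0 were lower in PC3 and VCaP. With cyclic loess 1 member was higher past 0.5 in C4-2B and 1 lower in VCaP. The mean of HSPH1 (0.02) turned to -0.0063 with cyclic loess. That of BAG2 (0.0002) turned to -0.0139 with median centring and -0.0351 with cyclic loess. The cause was not tested. With a line left out the means ran from -0.0331 to 0.43 for HSPA6, -0.0044 to 0.21 for HSPA14, -0.0141 to 0.28 for HSPB8, -0.0826 to 0.10 for HSPH1 (-0.0027 without PC3), -0.11 to 0.0642 for DNAJA4 (0.0173 without VCaP), -0.11 to 0.18 for BAG2 (-0.029 without C4-2B, -0.0358 without PC3), -0.0136 to 0.31 for BAG3 and -0.12 to 0.17 for CHORDC1. Low signals limit HSPA12B, HSPA6, HSPB8 and CRYAB, as well as HSPA2 in VCaP and DNAJA4 in C4-2B.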
